A study of Homo sapiens with 6 samples.

Results

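The forkhead genes encode transcription factors that share a winged-helix DNA-binding domain, the forkhead box. All gene lines whose symbol is FOX, a letter from A to S and a number were taken, which gave 44 genes of 25343 in the table. The rule reads the symbol alone. They were read in A375, an established human line from a malignant melanoma, given vehicle (PBS of equal volume, 0 nM drug; 3 libraries) or 50 nM panobinostat (3 libraries) for 24 h. Panobinostat inhibits histone deacetylases, the enzymes that take acetyl groups off histones and other proteins. The cells of both groups are parental A375, with no other agent or allele given, and all libraries come from this 1 line. The labels do not say whether the libraries of a group came from separate cultures, and the p-values reflect the spread among these 6 libraries, part of which may be technical.

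Forkhead factors bind DNA as monomers for the most part, at sites built on a short AT-rich core. The FOXO branch is held in the cytoplasm when PI3K and AKT signalling is active and moves to the nucleus when it is not, where it turns on genes of cell cycle arrest, stress defence, autophagy and cell death. FOXM1 works in the other direction of the cell cycle and drives genes of the G2 phase and mitosis together with the MuvB complex. FOXD3 is a factor of the neural crest, the embryonic tissue that gives rise to melanocytes, and the FOXC and FOXF genes act in mesenchyme and vessels.

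Of the 44 genes, 8 had 0 counts in every library, 8 had too few counts to be tested and 28 were tested. With panobinostat 14 of the 28 rose and 10 fell, by edgeR's quasi-likelihood test with a Benjamini-Hochberg adjusted p under 0.05 over all genes tested. Most of the transcriptome differed between the groups: 82.8% of 15499 tested genes passed that threshold, 41.8% higher and 41% lower, so the share of forkhead genes that passed is near the background. Of the forkhead genes 9 rose and 4 fell by at least 2-fold, where 18.9% and 11.7% of all tested genes did, and 6 rose and 2 fell by at least 4-fold, where 9.78% and 2.88% of all tested genes did. Of the 14 that rose, 5 passed the filter on low counts through the panobinostat libraries alone. Among genes kept by the filter these 5 had to differ, and each is also counted among the 9. The median log2 fold change was 0.18 over the 28 forkhead genes and 0.01 over all genes tested. By branch, 4 of 4 tested FOXO and 2 of 2 FOXK genes rose, and 2 of 2 FOXC, 3 of 3 FOXD and 2 of 2 FOXF genes fell. The FOXO rise includes FOXO3, whose call depended on how a near-identical copy was counted.

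**Figure D1:**
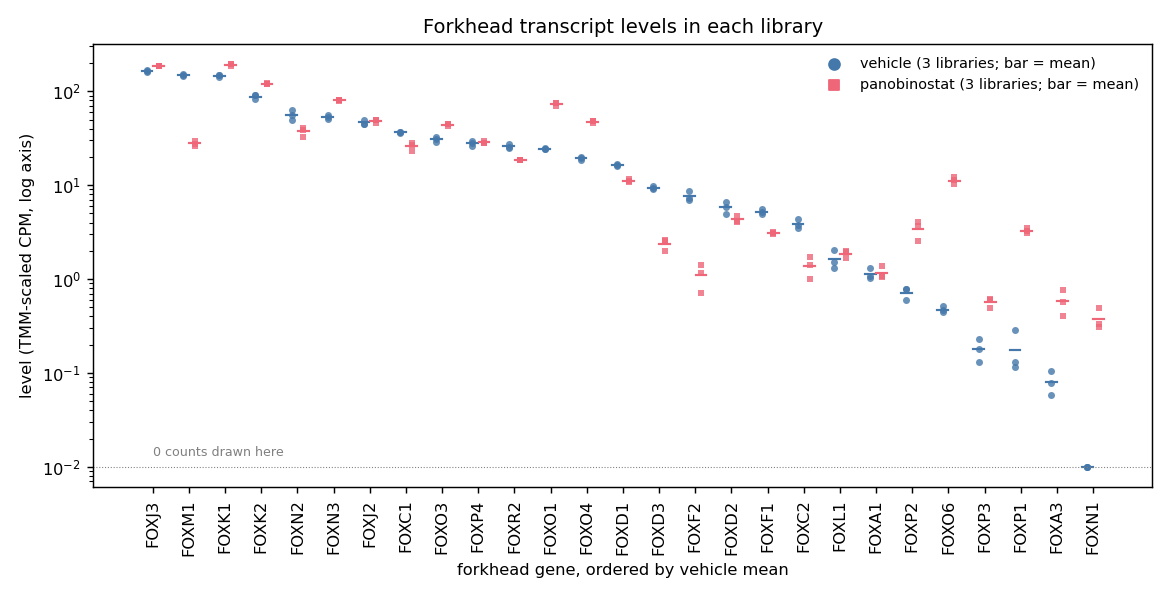
Level of tested forkhead genes in each library, in CPM on a log axis, with genes ordered by their vehicle mean. Circles are the 3 vehicle libraries, squares the 3 panobinostat libraries, and bars the group means; FOXN1, with 0 counts in vehicle, is drawn at the dotted line. The abundant genes keep to a narrow band apart from FOXM1, FOXO1 and FOXO4, and the right-hand genes, low in vehicle, sit higher with panobinostat. Of these, FOXA3, FOXN1, FOXP1 and FOXP3 passed the filter on low counts through the panobinostat libraries alone, so their higher place was fixed by the filter.

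Totals were 32293283 to 38944399 counts per library. At that depth 3 counts correspond to 0.0774 to 0.0928 CPM, a read count relative to library size that is scaled by library size and composition (TMM). Values below are CPM in the order of replicates 1, 2 and 3. Genes of other cell types were low in these cells, with summed levels of 4.96 to 6.17 CPM in vehicle and 3.64 to 3.90 CPM with panobinostat for 6 immune markers, among which PTPRC and NKG7 had 0 counts in vehicle. The 6 fibroblast markers summed to 13.3 to 14.2 CPM in vehicle and 75.6 to 79.6 CPM with panobinostat, the 6 epithelial markers to 15.9 to 17.5 and 52.7 to 56.2 CPM, and the 4 endothelial markers to 9.06 to 10.4 and 18.4 to 18.8 CPM. Of these, CDH1 and KRT20 had 0 counts in vehicle and no marker of these 3 lists was at 0 in both groups. Their part in the forkhead changes was not tested. Of the 8 melanocyte markers 3 fell, SOX10, MITF and S100B (log2 changes -1.14, -0.69 and -2.65), from means of 813, 53.5 and 71.9 CPM in vehicle. PMEL, a protein of the pigment granule, rose from 0.628 to 194 CPM, and TYRP1 rose from 0.235 to 0.448 CPM. DCT was too low to be tested, and MLANA and TYR were at 0 in all 6 libraries. The part of these markers in the forkhead changes was not tested either. In bulk RNA, fewer cells of a kind and less RNA per cell cannot be told apart.

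The RefSeq promoter table (GRCh38.p14) held 33 of the 44 genes. The 250 bases upstream of the start are shown for the 4 FOXO genes, whose lines in the table were all called higher, and for FOXD3 and FOXF2, which with FOXM1 had the largest falls. Capitals mark matches, on either strand, to a GC box, a CCAAT box, an E box or a cyclic AMP element. The GC box was searched as GGGCGG. The CCAAT box was searched by the letters of its name. The letters of the E box were CACGTG. Those of the cyclic AMP element were TGACGTCA.
FOXO1: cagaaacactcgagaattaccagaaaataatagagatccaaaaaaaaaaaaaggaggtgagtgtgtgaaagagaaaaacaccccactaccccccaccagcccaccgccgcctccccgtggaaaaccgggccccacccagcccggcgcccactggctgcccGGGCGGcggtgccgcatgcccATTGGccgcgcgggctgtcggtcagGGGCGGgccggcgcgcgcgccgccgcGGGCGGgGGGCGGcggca
FOXO3: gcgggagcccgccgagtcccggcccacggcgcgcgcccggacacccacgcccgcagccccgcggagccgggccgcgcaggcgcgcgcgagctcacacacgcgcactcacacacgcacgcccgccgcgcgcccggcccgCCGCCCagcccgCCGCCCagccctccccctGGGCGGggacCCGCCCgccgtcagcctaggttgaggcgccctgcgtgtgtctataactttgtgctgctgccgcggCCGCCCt
FOXO4: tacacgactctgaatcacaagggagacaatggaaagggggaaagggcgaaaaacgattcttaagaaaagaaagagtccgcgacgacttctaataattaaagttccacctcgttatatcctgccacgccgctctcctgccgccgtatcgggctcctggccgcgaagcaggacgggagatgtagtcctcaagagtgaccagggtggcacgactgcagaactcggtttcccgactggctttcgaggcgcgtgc
FOXO6: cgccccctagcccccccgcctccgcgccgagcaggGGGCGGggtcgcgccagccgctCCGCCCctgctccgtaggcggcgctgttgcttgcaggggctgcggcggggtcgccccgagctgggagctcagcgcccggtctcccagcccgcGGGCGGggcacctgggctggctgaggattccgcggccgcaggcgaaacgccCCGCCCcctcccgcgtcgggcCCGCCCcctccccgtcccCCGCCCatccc
FOXD3: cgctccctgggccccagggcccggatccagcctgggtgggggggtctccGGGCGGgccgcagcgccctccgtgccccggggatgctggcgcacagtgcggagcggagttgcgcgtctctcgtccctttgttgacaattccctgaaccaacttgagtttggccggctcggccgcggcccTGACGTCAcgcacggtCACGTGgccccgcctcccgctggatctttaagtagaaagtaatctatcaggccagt
FOXF2: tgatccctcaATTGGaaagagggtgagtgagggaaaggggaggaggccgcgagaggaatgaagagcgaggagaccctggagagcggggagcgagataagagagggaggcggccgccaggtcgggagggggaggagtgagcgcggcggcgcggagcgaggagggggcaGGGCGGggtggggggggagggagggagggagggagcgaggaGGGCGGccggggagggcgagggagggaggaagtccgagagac
The windows lie, 5′ to 3′ on the gene's strand, at chr13:40666642-40666891 (-) for FOXO1, chr6:108559575-108559824 (+) for FOXO3, chrX:71095601-71095850 (+) for FOXO4, chr1:41361184-41361433 (+) for FOXO6, chr1:63322317-63322566 (+) for FOXD3 and chr6:1389326-1389575 (+) for FOXF2. GC boxes number 4, 5, 0 and 6 in FOXO1, FOXO3, FOXO4 and FOXO6. The FOXO4 window has the lowest GC content of the 4, at 54.4%, against 67.2%, 80.4% and 81.6% in FOXO1, FOXO3 and FOXO6. FOXD3 holds the only cyclic AMP element among the 33 forkhead windows, 65 to 72 bases upstream, with an E box 51 to 56 bases upstream. A GC box was present in 72.7% of the 33 forkhead windows and in 65.5% of the windows of 11103 tested genes, a CCAAT box in 21.2% and 35.0%, an E box in 9.09% and 8.68%, and a cyclic AMP element in 3.03% and 2.70%. Of the 33 forkhead windows 11 belong to members that were not tested, so the 2 sets are not alike. Of forkhead-type cores read on both strands, GTAAACA and ATAAACA were in 0 of 33 windows and GCAAACA in 2 (6.06%), FOXA1 and FOXD4. The same cores were in 1.94%, 1.95% and 2.30% of the windows of tested genes. The cell cycle homology element TTTGAA was found in 5 forkhead windows (15.15%) and in 8.68% of those of tested genes. Its variant TTCGAA was in 0 forkhead windows and 1.37% of the others. The E2F-type run TTTNGCGC was in 2 forkhead windows (6.06%) and 2.32% of those of tested genes. None of the marked motifs overlapped in the 6 windows shown. A match is a run of letters and says nothing of binding.

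The FOXO genes, the branch restrained by AKT, were higher with panobinostat. FOXO1 stood at 24.3, 24.2 and 24.6 CPM in vehicle and at 74.8, 75.3 and 69.4 CPM with panobinostat. All panobinostat libraries were above all vehicle libraries, and the gene rose 3.0-fold (log2 change 1.59 ± 0.05 SE, edgeR adjusted p = 1.39e-14). FOXO4, on the X chromosome, was at 19.8, 19.3 and 18.6 CPM in vehicle and 48.0, 46.3 and 47.6 CPM with panobinostat, a rise of 2.46-fold (log2 change 1.30 ± 0.05, edgeR adjusted p = 4.21e-13). FOXO6, a member best known from the brain and unusual in staying largely nuclear, went from 0.516, 0.464 and 0.441 CPM to 10.2, 11.2 and 12.1 CPM. That is 23.4-fold (log2 change 4.55 ± 0.14, edgeR adjusted p = 8.09e-15), from 53 counts over the vehicle libraries to 1173 over the panobinostat libraries. The groups did not overlap for any of these genes.

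FOXO3, the FOXO gene most often tied to stress resistance, showed 28.8, 32.9 and 30.8 CPM in vehicle and 44.4, 42.4 and 44.4 CPM with panobinostat, 1.42-fold higher (log2 change 0.51 ± 0.06, edgeR adjusted p = 2.87e-07). The table also has a line for FOXO3B, a copy of FOXO3 elsewhere in the genome. Its GENCODE 29 transcript of 1928 bases aligns to a FOXO3 transcript over 1928 bases at 99.1% identity. FOXO3B moved the other way, from 18.1, 17.7 and 16.8 CPM to 8.18, 8.59 and 7.74 CPM (log2 change -1.10 ± 0.07, edgeR adjusted p = 2.11e-10). FOXO3B overlaps another gene, ZNF286B, over 1928 bases of the same strand in GENCODE 29. ZNF286B fell too, from a mean of 3.36 CPM to one of 2.22 CPM (log2 change -0.60). The rule by which reads matching more than 1 of these genes were assigned was not given in the sources used here. Summed, FOXO3 and FOXO3B stood at 46.9, 50.6 and 47.7 CPM in vehicle and 52.6, 51.0 and 52.2 CPM with panobinostat. With the counts summed before the fit, an alternative chosen after seeing the data, the difference was 0.10 ± 0.05 on the log2 scale and did not pass (edgeR adjusted p = 0.06). The summed pair passed with RLE, upper quartile and library-size scaling (log2 changes 0.12, 0.22 and 0.12) and did not with DESeq2 or limma-voom (adjusted p = 0.0516 and 0.0521). The values of FOXO3 are therefore uncertain, and its rise rests on counting it apart from FOXO3B.

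**Figure D2:**
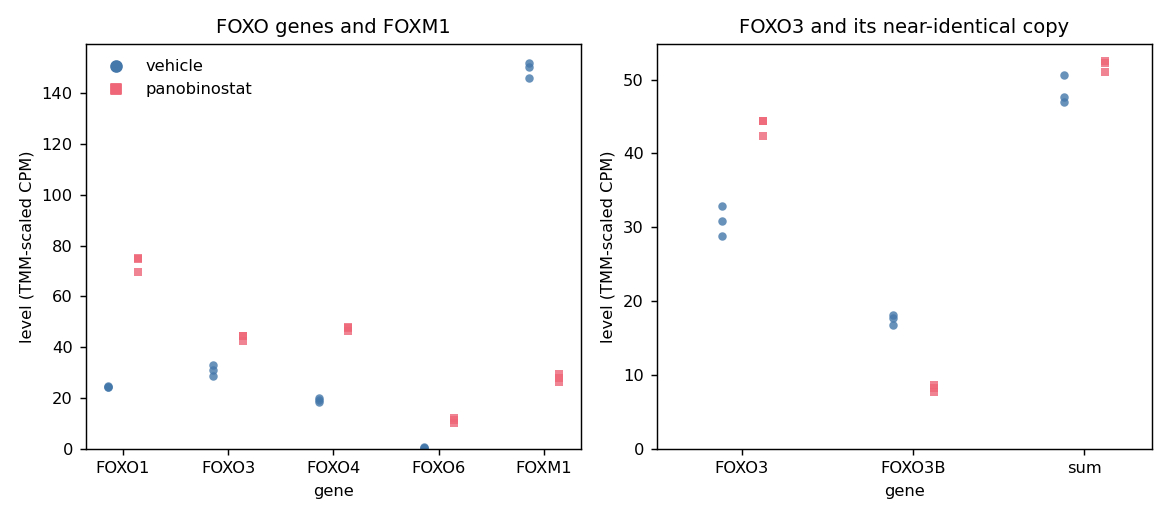
Levels in CPM on linear axes from 0, each point a library, circles vehicle and squares panobinostat. Left, FOXO1, FOXO4 and FOXO6 sit higher with panobinostat and FOXM1 lower, with no overlap; right, FOXO3 is higher, FOXO3B lower, and their sum lies at 46.9 to 50.6 CPM in vehicle and 51.0 to 52.6 CPM with panobinostat.

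FOXM1, the forkhead factor of proliferating cells, fell furthest among the abundant members. It was at 152, 150 and 146 CPM in vehicle and at 26.4, 27.7 and 29.3 CPM with panobinostat (log2 change -2.43 ± 0.05, edgeR adjusted p = 2.97e-17). Its neighbour RHNO1, a gene of the checkpoint response to damaged replication forks that runs on the opposite strand, fell with it, from 45.1 ± 0.702 to 9.19 ± 0.845 CPM (SD, n = 3; log2 change -2.29). The exons of FOXM1 and RHNO1 share 0 bases in GENCODE 29. Another opposite-strand gene, ITFG2, shares 781 exon bases with FOXM1, 15.9% of its exon length, with mean levels of 13.4 CPM in vehicle libraries and 6.04 CPM in panobinostat libraries. The strand used in counting was not given in the sources used here, and reads in that stretch cannot be told apart. Set against FOXO per kilobase of exon, FOXM1 was above the FOXO sum in vehicle and below it with panobinostat. The summed FOXO level was 0.439, 0.454 and 0.454 times that of FOXM1 in the vehicle libraries and 6.68, 6.30 and 5.98 times in the panobinostat libraries. That sum counts FOXO3 without FOXO3B.

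**Figure D3:**
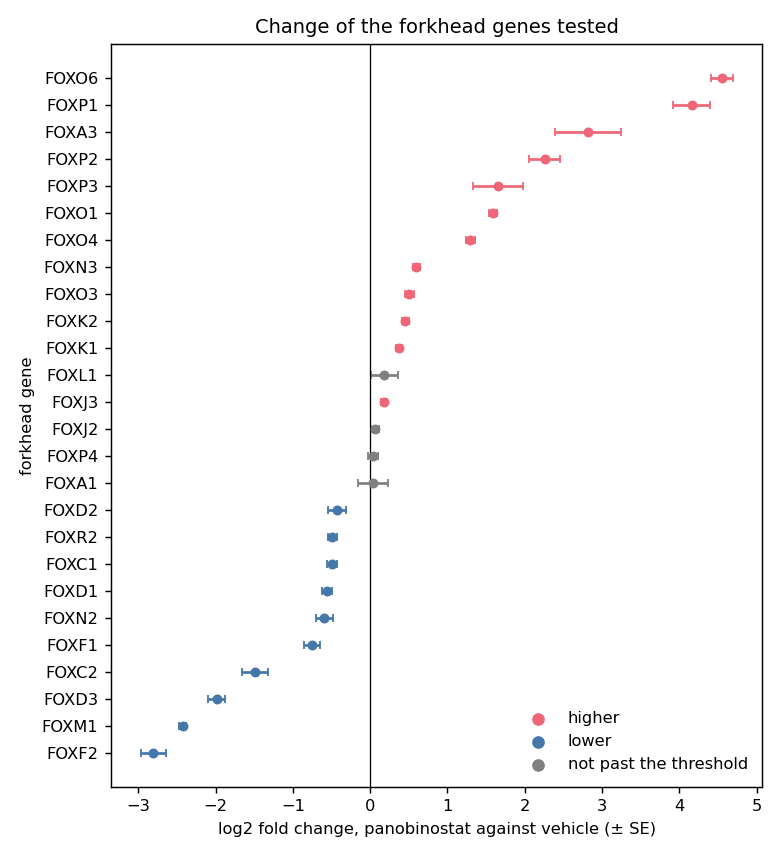
Log2 fold change, panobinostat against vehicle, of tested forkhead genes with bars of 1 SE from edgeR; FOXN1, with 0 vehicle counts, is left out because its fitted change depends on the prior count. FOXO6 (4.55) and FOXP1 (4.16) lie at the high end and FOXF2 (-2.80) and FOXM1 (-2.43) at the low end, while FOXL1, FOXJ2, FOXP4 and FOXA1, in grey, did not pass the threshold.

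The FOXP genes, repressors that act as dimers, were low in vehicle apart from FOXP4. FOXP1 and FOXP3 passed the filter on low counts through the panobinostat libraries alone, so their adjusted p-values carry no separate weight. FOXP1, a factor of lymphocyte, heart and neuron development, had 0.284, 0.116 and 0.130 CPM in vehicle, 20 counts in all, and 3.23, 3.06 and 3.50 CPM with panobinostat (log2 change 4.16 ± 0.24, edgeR adjusted p = 3.43e-11). FOXP2, known for its part in speech and in neurons, went from 0.774, 0.782 and 0.596 CPM to 3.65, 4.05 and 2.57 CPM, 4.79-fold higher (edgeR adjusted p = 1.37e-08). FOXP3, the factor of regulatory T cells, stayed low in both groups, at 0.130 to 0.232 CPM in vehicle and 0.497 to 0.619 CPM with panobinostat, and passed as 3.15-fold higher (edgeR adjusted p = 0.000173). FOXP3 shares 91 exon bases with CCDC22 on the other strand, which moved the opposite way, from a mean of 16 CPM to one of 11.6 CPM. FOXP4 was at 29.5, 28.0 and 26.1 CPM in vehicle and 28.0, 29.5 and 28.2 CPM with panobinostat, with overlapping groups (log2 difference 0.04 ± 0.06, edgeR adjusted p = 0.578). Under upper quartile scaling it was called higher (0.16), and there the median of all genes moved from 0.01 to 0.13.

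Other members rose from low levels. FOXA3, a liver pioneer factor, had 0.0580 to 0.104 CPM in vehicle, 9 counts in all, and 0.402 to 0.773 CPM with panobinostat (log2 change 2.82 ± 0.42, edgeR adjusted p = 9.28e-06). FOXN1, the factor of thymic epithelium and hair follicles, had 0 counts in all vehicle libraries and 18, 12 and 10 counts with panobinostat, a difference of at least 4.69-fold when vehicle is set to 3 counts per library, a limit that covers counting error only. FOXA3, FOXN1, FOXP1 and FOXP3 were among 5 members that passed the filter on low counts through the panobinostat libraries alone, so among genes kept by the filter these had to differ, and no tested member passed through vehicle alone. FOXA1, of the same branch as FOXA3 and a pioneer factor of breast and prostate, was at 1.08, 1.01 and 1.30 CPM in vehicle and 1.05, 1.07 and 1.39 CPM with panobinostat (log2 difference 0.03 ± 0.19, edgeR adjusted p = 0.874).

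Among the FOXJ, FOXK and FOXN genes the changes were small in size, below 2-fold in each tested case but that of FOXN1. FOXJ3, among the most abundant members, was at 158, 164 and 167 CPM in vehicle and 184, 184 and 186 CPM with panobinostat, 1.13-fold higher (edgeR adjusted p = 0.000248). FOXJ2 stood at 49.1, 45.2 and 45.1 CPM in vehicle and 49.9, 46.1 and 49.5 CPM with panobinostat, overlapping groups whose difference was not called (log2 difference 0.06 ± 0.05, edgeR adjusted p = 0.294). Under upper quartile scaling (0.18) and under a filter of 5 CPM in 3 libraries (0.16) it was called higher. FOXK1 and FOXK2 recruit the SIN3 corepressor and repress autophagy genes. FOXK1 was at 150, 148 and 143 CPM in vehicle and 194, 185 and 193 CPM with panobinostat, 1.30-fold higher (edgeR adjusted p = 9.69e-08). FOXK2 was at 91.2, 90.4 and 82.1 CPM in vehicle and 119, 121 and 121 CPM with panobinostat, 1.37-fold higher (edgeR adjusted p = 5.19e-08). FOXN2 and FOXN3, sisters within their branch, moved apart. FOXN3, a repressor linked to the checkpoint response, was at 50.8, 55.2 and 52.6 CPM in vehicle and 80.2, 80.2 and 78.9 CPM with panobinostat, 1.51-fold higher (edgeR adjusted p = 1.85e-09). FOXN2 was at 49.3, 55.9 and 63.8 CPM in vehicle and 38.7, 40.9 and 32.4 CPM with panobinostat, lower with no overlap although its libraries spread more than those of FOXN3 (log2 change -0.59 ± 0.11, edgeR adjusted p = 0.00128).

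The FOXC, FOXD and FOXF branches were lower in all 7 tested genes, each with groups that did not overlap, where 41% of all tested genes were lower. The branches were set together with earlier results of these data known, so the 7 are a description and not a test. FOXL1, the direct neighbour of FOXC2, was tested and did not fall (log2 difference 0.18 ± 0.18). FOXD4, which was not tested, did not fall, with 5 counts in vehicle and 16 with panobinostat. Over the 28 tested forkhead genes the ranges of 14 were apart and higher and those of 10 apart and lower, where 83.4% of all tested genes had ranges apart, so this count too is near the background. FOXD3, which in the neural crest holds cells back from the melanocyte fate, was at 9.73, 9.42 and 8.99 CPM in vehicle and 1.99, 2.60 and 2.54 CPM with panobinostat (log2 change -1.98 ± 0.11, edgeR adjusted p = 1.79e-11). FOXD1, a factor of kidney stroma and retina, was at 16.1, 16.5 and 16.7 CPM in vehicle and 11.1, 11.7 and 10.8 CPM with panobinostat (log2 change -0.56 ± 0.07, edgeR adjusted p = 6.71e-07). FOXD2 was at 6.69, 5.83 and 4.90 CPM in vehicle and 4.06, 4.16 and 4.73 CPM with panobinostat, the closest approach of the groups among these genes (log2 change -0.43 ± 0.12, edgeR adjusted p = 0.00326). Its antisense partner FOXD2-AS1 fell too (log2 change -0.65 ± 0.11, edgeR adjusted p = 5.12e-05).

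FOXF2, a factor of gut and palate mesenchyme, had the largest fall of the family. It was at 7.33, 8.58 and 6.97 CPM in vehicle and 0.718, 1.15 and 1.42 CPM with panobinostat (log2 change -2.80 ± 0.16, edgeR adjusted p = 7.71e-11). FOXF1, its paralog in lung and gut mesenchyme, was at 5.16, 5.51 and 4.98 CPM in vehicle and 3.04, 3.15 and 3.06 CPM with panobinostat (log2 change -0.76 ± 0.10, edgeR adjusted p = 3.49e-06). FOXC2, a factor of lymphatic vessels, was at 4.34, 3.77 and 3.47 CPM in vehicle and 1.71, 1.39 and 0.990 CPM with panobinostat (log2 change -1.48 ± 0.17, edgeR adjusted p = 2.78e-07). FOXC1, which acts in the eye and in vessels, was at 37.3, 35.8 and 36.9 CPM in vehicle and 28.1, 27.0 and 23.1 CPM with panobinostat (log2 change -0.49 ± 0.07, edgeR adjusted p = 2.60e-06).

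These branches are partly clustered in the genome, by the order of coding genes in RefSeq (GRCh38.p14). On chromosome 6 FOXF2 and FOXC1 are direct neighbours, and both fell, while FOXQ1 beside them, with 1 coding gene between, had 0 counts in every library. On chromosome 16 FOXF1, FOXC2 and FOXL1 lie together, with 1 coding gene between FOXF1 and FOXC2 and 0 between FOXC2 and FOXL1. FOXF1 and FOXC2 fell, and FOXL1 was at 2.04, 1.54 and 1.30 CPM in vehicle and 1.66, 1.97 and 1.92 CPM with panobinostat, which overlap (log2 difference 0.18 ± 0.18, edgeR adjusted p = 0.348). On chromosome 1 FOXD2 has FOXE3 as its direct neighbour, with 1 count in all libraries together.

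FOXR2, a gene of the X chromosome that is normally limited to the testis and is activated in some tumours, was among the abundant members of this line. It was at 24.7, 25.5 and 27.4 CPM in vehicle and 18.5, 18.3 and 18.5 CPM with panobinostat, lower with no overlap (log2 change -0.49 ± 0.06, edgeR adjusted p = 1.07e-06). Its relative FOXR1 had 0 counts in every library.

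Members that could not be tested stayed near the detection limit. FOXB1, FOXB2, FOXE1, FOXI1, FOXI2, FOXL2, FOXQ1 and FOXR1 were at 0 in all 6 libraries, where 3 counts would be 0.0774 to 0.0928 CPM. FOXA2 had 2 counts in vehicle and 13 with panobinostat, 9 of them in replicate 2. FOXD4 had 5 and 16 counts, and its sequence is shared with FOXD4-like copies, which held at most 2 counts in a library. FOXI3 had 12 and 26 counts, FOXH1 22 and 17, FOXJ1 3 and 4, FOXN4 0 and 5, FOXE3 0 and 1, and FOXS1 0 and 1. The ranges of FOXD4 and FOXI3 did not overlap, with the panobinostat libraries higher, and those of FOXA2 did. The filter kept these genes out of the test. With no filter on low counts 15 forkhead genes were called higher, 14 of them also called with it.

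The number of forkhead genes with a mean of 1 CPM or more was 21 in vehicle and 25 with panobinostat, with FOXO6, FOXP1 and FOXP2 among those added. The summed level of the family hardly moved, at 914 to 929 CPM in the vehicle libraries and 970 to 982 CPM in the panobinostat libraries. Per kilobase of exon (union of GENCODE 29 exons, which need not match the authors' annotation) the sum was 156 to 158 in vehicle and 147 to 149 with panobinostat. The make-up of that sum differed. FOXM1 held 19.5% of it in vehicle, the largest share, and 3.84% with panobinostat, where it ranked 11. FOXJ3 held 15.1% and 18.1% and ranked first with panobinostat. FOXO4 went from 3.56% to 9.28%, FOXO1 from 2.50% to 7.93% and FOXO6 from 0.126% to 3.16%. FOXK1 and FOXK2 went from 7.17% and 5.62% to 9.84% and 8.16%. FOXR2, with a short transcript, held 8.58% and 6.47%, and FOXD3 2.87% and 0.769%.

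**Figure D4:**
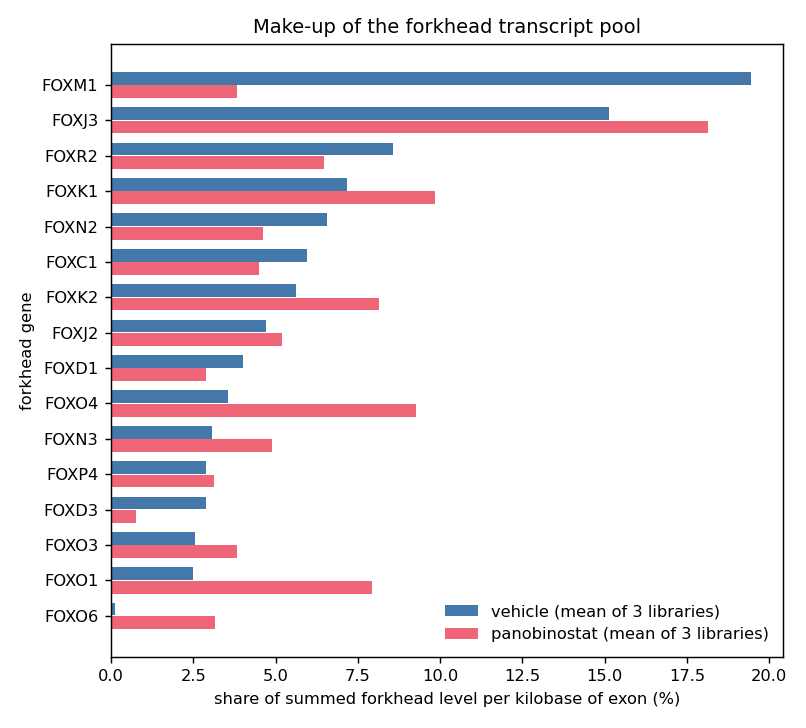
Share of each gene in the summed forkhead level per kilobase of exon, in percent, for genes with 2% or more in either group; bars are means over 3 libraries and start at 0. FOXM1 drops from 19.5% to 3.84%, and FOXO4, FOXO1 and FOXO6 gain, to 9.28%, 7.93% and 3.16%.

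Genes known as FOXO targets were mostly higher. Of 34 listed genes 29 were tested, 21 rose and 6 fell, with a median log2 change of 0.74, where 41.8% of all tested genes rose, 41% fell and the median was 0.01. This list and those below were drawn up with earlier results of these data known, so their counts are descriptions and not tests. TXNIP, an inhibitor of thioredoxin, rose 4.90-fold, and PINK1, a kinase of mitochondrial quality control, rose from 27.7 ± 1.63 to 85.5 ± 2.54 CPM. CITED2, a transcription cofactor, rose from 11.6 ± 1.24 to 319 ± 20.4 CPM. PCK1, the first committed enzyme of gluconeogenesis and a FOXO1 target in liver, went from 4 counts over the vehicle libraries to 307, 293 and 230 counts with panobinostat. It is among the listed genes that passed the filter on low counts through the panobinostat libraries alone, and whose rise was thereby fixed. The genes that fell included the receptor kinase ERBB3 (log2 change -3.09), the translation repressor EIF4EBP1 (-1.30), the stress-induced SESN1 (-0.90) and the mitochondrial peroxidase PRDX3 (-0.60). Of listed genes tied to cell cycle arrest, CCNG2 (-0.72) and CDKN1B (-0.15) also fell, RBL2 was not called (-0.007) and GADD45A rose (0.73). The list moved in both directions.

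Regulators of FOXO proteins moved mostly the other way, with 6 of 27 tested higher and 16 lower (median log2 change -0.26), beside 41.8% and 41% of all tested genes. The adaptor IRS1 rose from 11.8 ± 0.585 to 62.3 ± 1.43 CPM, the kinase SGK1, which like AKT phosphorylates FOXO, 2.63-fold, and STK4, a kinase that favours nuclear FOXO, 1.37-fold. AKT1 fell from 115 ± 5.76 to 58.2 ± 1.72 CPM. SKP2, a ubiquitin ligase subunit that marks FOXO1 for degradation, fell from 93.8 ± 0.535 to 25.5 ± 1.23 CPM, the ligase MDM2 from 242 ± 12.8 to 152 ± 4.73 CPM and the nuclear exporter XPO1 from 625 ± 23.8 to 422 ± 11.0 CPM. These are transcript levels, and neither phosphorylation nor the place of FOXO proteins in the cell was measured.

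FOXM1 targets and the MuvB partners it works with fell in 19 of 23 tested cases and rose in 3, with a median log2 change of -1.27, where 41% of all tested genes fell and 41.8% rose. The kinesins KIF20A and KIF2C fell from 170 ± 3.70 to 42.4 ± 1.61 CPM and from 137 ± 3.34 to 40.1 ± 0.651 CPM, the cyclin CCNB2 from 104 ± 1.89 to 28.1 ± 1.65 CPM and MYBL2, a partner that binds MuvB before FOXM1 does, from 123 ± 6.22 to 32.7 ± 1.38 CPM. The exception of size was CDC25B, the phosphatase that activates CDK1, which rose from 178 ± 8.97 to 545 ± 7.34 CPM. The MuvB subunits LIN37 and LIN54 rose 1.31-fold and 1.10-fold. The ranges of LIN54 overlapped, and its call was lost with a replicate block (0.14), with no filter on low counts (0.10) and when any of 4 libraries was left out, namely replicate 1 of vehicle (0.09), replicate 2 of vehicle (0.11), replicate 1 of panobinostat (0.13) and replicate 2 of panobinostat (0.10).

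Of the corepressors and partners of forkhead factors 9 of 22 were higher and 9 lower (median log2 change -0.003), shares at the background of 41.8% and 41% of all tested genes. Upper quartile scaling gave 12 higher and 7 lower, and the 5 CPM filter gave 11 higher and 7 lower. The Groucho corepressors TLE4 and TLE2 rose 2.16-fold and 2.39-fold, SMAD2, the partner of FOXH1 in nodal signalling, 1.47-fold and DVL1, whose nuclear entry FOXK proteins promote, 1.57-fold. CTBP2, CTBP1, NCOR1 and ASXL1, all corepressor components, fell, with log2 changes of -0.86, -0.68, -0.52 and -0.35. Neural crest factors, the company of FOXD3, fell in 8 of 15 tested cases and rose in 6 (median log2 change -0.55). With 41% of all tested genes lower and 41.8% higher, these counts are near the background. TFAP2B, SNAI2, TWIST1 and SOX10 fell, with log2 changes of -5.38, -1.80, -1.32 and -1.14. MSX2 rose from 5.62 ± 0.368 to 39.2 ± 2.01 CPM and SOX9 from 0.252 ± 0.0421 to 10.2 ± 0.809 CPM, and ID3 and TFAP2A rose 2.50-fold and 1.79-fold.

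**Figure D5:**
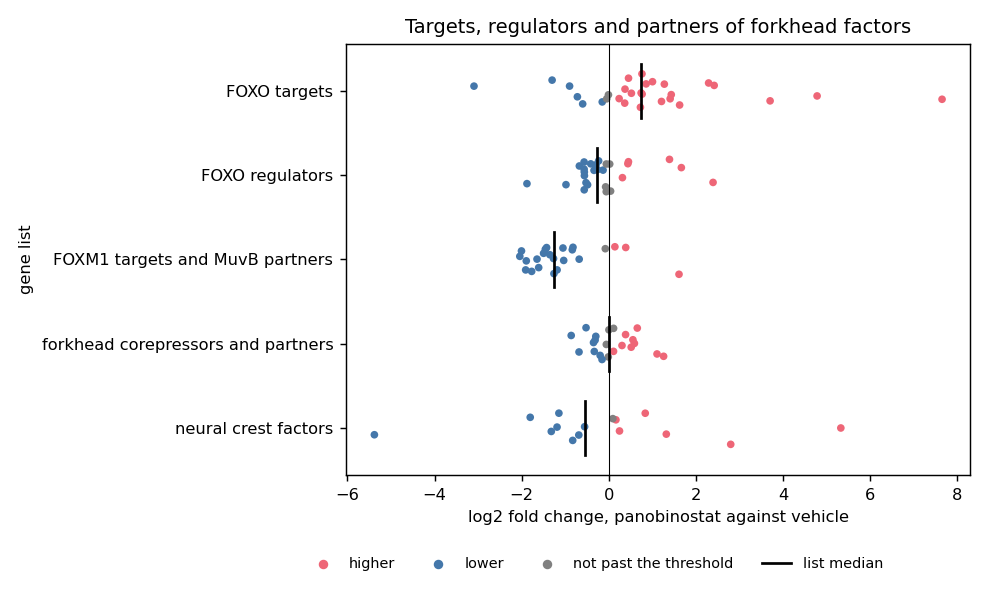
Log2 fold change, panobinostat against vehicle, of each tested gene in 5 lists of forkhead targets, regulators and partners; vertical bars are list medians, and colours give the edgeR call. FOXM1 targets sit mostly to the left (median -1.27) and FOXO targets mostly to the right (median 0.74), each with genes on the other side.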

How the data were processed

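RNA of 6 A375 libraries was analysed from the deposited table of counts, which holds whole numbers of reads per gene symbol as the authors made them, without normalization. STAR appears only in the name of that table. Its version, the build, the annotation, the counter and the strand were not given in the sources used here. Columns were matched to samples by title and groups were taken from the labels. Of 25435 lines, 92 were spike-in controls with 0 counts and were left out, and 25343 named genes, 28 of them with date-like symbols.

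Genes were kept by filterByExpr (0.277 CPM, or 10 counts, in 3 libraries) and scaled by TMM. The test was edgeR 4.0.16 in R 4.3.3, by glmQLFit (robust) and glmQLFTest with group as the single term, and Benjamini-Hochberg adjustment over 15499 genes at 0.05. CPM use TMM-scaled library sizes. No pair of libraries was identical (chi-square per degree of freedom 1.90 to 9.14 within groups and 312 to 359 between them). On counts simulated for panobinostat against vehicle (14348 genes tested, 50 changed per fold size), the share of changed genes that edgeR found was 72% for 1.25-fold, 96% for 1.5-fold, and 100% for 2-fold and for 4-fold. Of its 206 calls, 10.7% were genes that had not been changed, above the nominal rate. Few genes were changed there, where 82.8% of tested genes passed in the data, so these shares need not hold for the data. The changed genes were drawn from those with more counts in vehicle, so the shares do not cover members near the detection limit.

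Other settings tried were scaling by RLE, by upper quartile or by library size alone, a filter of at least 5 CPM in 3 libraries or none, DESeq2 1.42.0, limma-voom (limma 3.58.1), a replicate term, each library left out, and FOXO3 summed with FOXO3B. Exon lengths and overlaps came from GENCODE 29, in which 44 of 44 members were found by symbol. Members reaching 1 CPM in a group are given library by library and other members by range or count. Of each list, up to 4 called genes per direction with the smallest adjusted p are named. The members and lists were chosen with earlier results of these data known. RHNO1, ITFG2, CCDC22, FOXO3B, ZNF286B and FOXD2-AS1, and CCNG2, CDKN1B, RBL2 and GADD45A of the FOXO targets, were named after their values were seen. Some genes counted in the totals are not reported here by name.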

Additional observations from a re-analysis of the deposited data

How the results depend on the processing

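Of 381 comparisons of a tested forkhead gene with its value under another setting, the sum of FOXO3 with FOXO3B apart, 372 kept their direction and side of the threshold. The other 9 concern 3 genes that did not pass. In that sum, tried after the data were seen, FOXO3 lost its call (0.10, edgeR adjusted p = 0.06). FOXP4 and FOXJ2 passed under upper quartile scaling (0.16 and 0.18), and FOXJ2 also under the 5 CPM filter (0.16). The log2 difference turned negative with no filter on low counts for FOXA1 (-0.0090) and FOXP4 (-0.0071). With 1 library left out it ranged from -0.10 to 0.13 for FOXA1, negative without vehicle replicate 1 (-0.016), vehicle replicate 2 (-0.052) or panobinostat replicate 3, and from -0.027 to 0.063 for FOXP4, negative without vehicle replicate 3. The cause was not tested. Under the 5 CPM filter 9 of 17 tested forkhead genes rose, 8 of them among the 14, and 7 fell, since that filter tests fewer genes. Under the other settings 14 to 16 rose and 10 fell. The median log2 change of the forkhead genes was 0.18, and 0.30 with upper quartile scaling, where the median of all genes moved from 0.01 to 0.13. It was 0.41 with no filter on low counts, which tests 36 forkhead genes in place of 28, and 0.15 to 0.26 with 1 library left out, highest without vehicle replicate 1. Same-numbered libraries did not deviate together (r = -0.078, -0.058 and -0.141), which gives no sign of pairing. With so few libraries this cannot exclude that the numbers pair the samples. With a replicate block 14 forkhead genes rose and 10 fell, each of them also called without the block, and over all genes 6259 rose and 6150 fell, against 6471 and 6355. Among the named genes read under the block, it ended the call of LIN54 alone. CCNG2, CDKN1B, RBL2, GADD45A and ZNF286B were not read there. Depth limits the 16 untested members, which had too few counts for a test.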
